A study of Homo sapiens with 48 samples.

Results

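The question addressed here was whether breast cancer cells respond differently to IGF-I within 4 h when the adaptor they carry is IRS-1 or IRS-2. The difference was taken as an interaction: the mean response (IGF-I minus SFM) of clones IRS-1 #10 and #20, minus the mean response of clones IRS-2 #1 and #6. It rests on 24 of the 48 arrays of the series, those harvested at 4 h, which form 8 groups of 3 arrays. The parental line is T47D-YA, a variant of the T47D luminal breast cancer line that lacks IRS proteins, so that signaling to IRS depends on the adaptor each clone was given. Every group therefore shares the T47D-YA background and carries 1 IRS isoform: IRS-1 #10 with IGF-I, IRS-1 #20 with IGF-I, IRS-2 #1 with IGF-I and IRS-2 #6 with IGF-I, and the same clones in serum-free medium (SFM). Cells had been kept in SFM for 24 h before IGF-I was added, and the methods describe the control medium as SFM+FN. Each isoform is represented by 2 clones, so that a difference between isoforms and a difference between particular clones can only be separated as far as the clones of an isoform behave alike. For that reason the responses of all 4 clones are given for each gene.

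IGF-I binds the type I IGF receptor, a tyrosine kinase that phosphorylates IRS adaptors on many tyrosines. Phosphorylated IRS-1 and IRS-2 recruit phosphatidylinositol 3-kinase and GRB2, which lead to AKT and to the ERK kinases. Within the first hours ERK signaling is known to raise immediate early transcription factors and its own inhibitors, including dual specificity phosphatases, while AKT restrains the FOXO factors. NF-kB is held in the cytoplasm by IkB proteins, among them the product of NFKBIA, which is itself an NF-kB target.

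Values are log2 expression values of Affymetrix probe sets, so that a response of 1 stands for a doubling of the signal. The 24 arrays ranged from 3.13 to 15.36 with medians of 7.39 to 7.50, and arrays of a group correlated at 0.994 to 0.998. The luminal markers KRT8, KRT18, KRT19, EPCAM, CDH1, GATA3, FOXA1 and ELF3 stood between 9.42 and 14.88 on all 24 arrays, and the averaged level of this list was 12.85 to 13.17. The markers TP63, KRT17 and CD68 had no probe set of their own. Averaged levels of the other marker lists were 7.02 to 7.39 for basal epithelium, 8.32 to 8.73 for fibroblasts, 6.98 to 7.44 for leukocytes and 7.37 to 7.77 for endothelium, although levels of different probe sets are not on 1 scale. No marker passed the test of the isoform difference. An array reads the RNA of a whole culture, so a change in some cells and a smaller change in all of them cannot be told apart. The arrays did not check the transferred adaptor. The sources used here do not say which IRS1 or IRS2 probe sets read the introduced cDNA, and on SFM arrays all 3 IRS1 probe sets were higher with the IRS-2 label than with the IRS-1 label, by 4.79-, 1.15- and 1.36-fold (adjusted p = 5.05e-28, 0.0011 and 8.42e-06). Of the 2 IRS2 probe sets, 1 was higher with the IRS-1 label, by 0.36 on the log2 scale (adjusted p = 6.23e-06), and the other differed by -0.0094 (adjusted p = 0.910). The IRS1 and IRS2 probe sets that passed thus all ran against the labels. The clones are named by their labels throughout, and every direction given rests on those labels. On SFM arrays, 27995 of 54613 probe sets (51.3%) differed between the IRS-1 and IRS-2 clones at an adjusted p under 0.05, so the responses compared here started from unlike levels.

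At every probe set that passed both thresholds, the mean response to IGF-I at 4 h was lower in the IRS-1 clones. At the 3 GBP1 probe sets among them, IRS-1 #20 by itself responded more than IRS-2 #1. Of 54613 probe sets, 16 (0.0293%) were called lower in IRS-1 than in IRS-2 and 0 were called higher, with called meaning a Benjamini-Hochberg adjusted p under 0.05 in limma and a difference of at least 1.5-fold. With an unadjusted p under 0.05 and the same fold, 17 were lower and 0 higher, and by the methods' t-test, without adjustment, 15 and 0. The 16 belong to TGFB2 with 4 probe sets, GBP1 with 3, and MAFF, LMCD1, C2CD4A, CDKN2B, CREB5 and FLRT3 with 1 each, and 3 have no single gene symbol. With each gene represented by its brightest probe set, 4 of 19775 genes (0.0202%) were called: TGFB2, GBP1, C2CD4A and CDKN2B. At the adjusted p alone, 129 probe sets (0.236%) responded lower in IRS-1 and 13 (0.0238%) higher, which by genes made 77 genes (0.389%) lower and 10 genes (0.0506%) higher. Of those 77, 73 differed by less than 1.5-fold. The median standard error of the difference was 0.084 over all probe sets. Arrays were the replicates in this test, so its error holds the spread between arrays and not the spread between clones. Nothing in the labels says that arrays of a group came from separate cultures, so this spread may be technical.

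**Figure D1:**
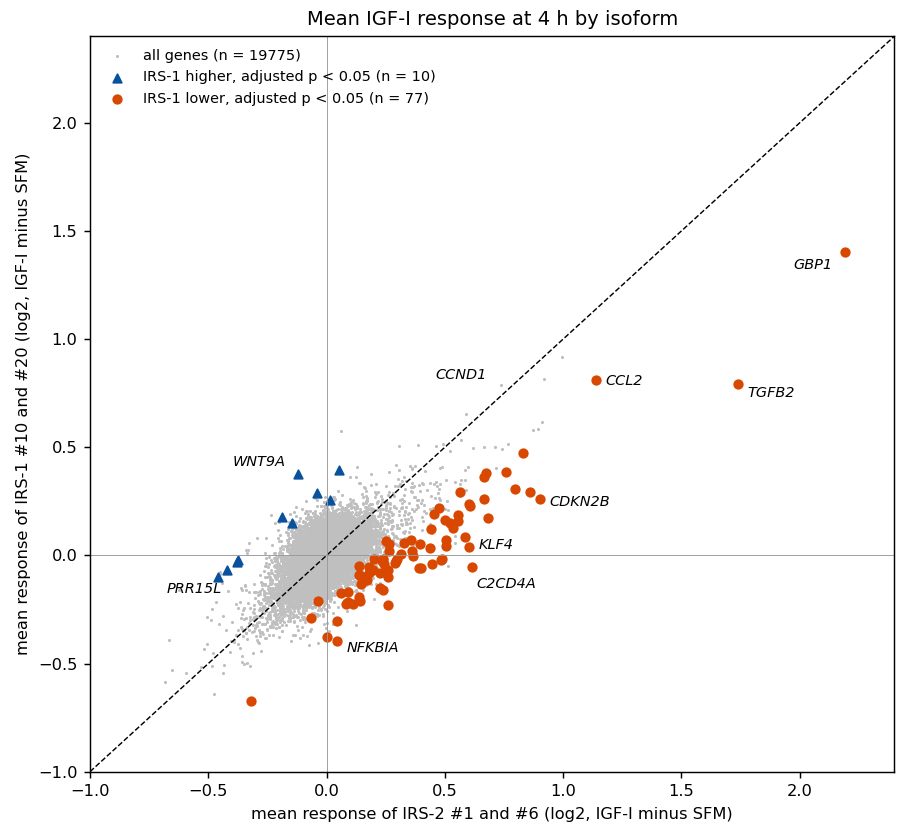
Mean response to IGF-I at 4 h (log2, IGF-I minus SFM) of the IRS-1 clones on the y axis against that of the IRS-2 clones on the x axis, 1 point per gene, with the dashed line marking equal responses. The 77 genes that responded lower in IRS-1 (orange circles) lie below the line, most of them right of 0 on the x axis, and the 10 higher genes (blue triangles) lie above it.

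Promoters of 4 of the genes described below are printed first, because they carry the sequence matches mentioned with the results. They run from 250 bases before to 50 bases after the annotated start in RefSeq (build GRCh38.p14) and are written 5′ to 3′ on the strand of the gene. Capitals mark a TATAAA match in TGFB2, a CArG box (the motif bound by SRF) in GBP1, a kappa B site and a TATAAA match on the opposite strand in NFKBIA, and a pair of kappa B sites in TNFAIP3.
TGFB2 (chr1:218345086-218345385, plus strand): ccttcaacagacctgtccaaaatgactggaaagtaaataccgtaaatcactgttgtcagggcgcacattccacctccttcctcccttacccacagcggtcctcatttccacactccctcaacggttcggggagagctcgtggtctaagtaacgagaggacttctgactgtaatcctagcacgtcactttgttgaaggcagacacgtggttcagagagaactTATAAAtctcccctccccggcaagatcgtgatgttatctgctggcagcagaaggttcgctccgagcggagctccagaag
GBP1 (chr1:89065159-89065458, minus strand): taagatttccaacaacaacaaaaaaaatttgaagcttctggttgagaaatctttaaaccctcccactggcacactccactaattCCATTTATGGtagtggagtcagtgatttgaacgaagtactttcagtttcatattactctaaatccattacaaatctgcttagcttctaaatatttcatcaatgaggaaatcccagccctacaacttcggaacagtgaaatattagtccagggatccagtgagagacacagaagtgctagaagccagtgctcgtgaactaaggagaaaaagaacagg
NFKBIA (chr14:35404700-35404999, minus strand): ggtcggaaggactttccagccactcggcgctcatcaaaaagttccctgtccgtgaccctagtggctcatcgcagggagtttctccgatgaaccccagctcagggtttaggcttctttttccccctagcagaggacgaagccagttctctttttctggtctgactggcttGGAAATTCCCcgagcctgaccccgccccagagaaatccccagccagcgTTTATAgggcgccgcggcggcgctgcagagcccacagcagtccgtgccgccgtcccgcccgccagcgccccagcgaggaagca
TNFAIP3 (chr6:137867009-137867308, plus strand): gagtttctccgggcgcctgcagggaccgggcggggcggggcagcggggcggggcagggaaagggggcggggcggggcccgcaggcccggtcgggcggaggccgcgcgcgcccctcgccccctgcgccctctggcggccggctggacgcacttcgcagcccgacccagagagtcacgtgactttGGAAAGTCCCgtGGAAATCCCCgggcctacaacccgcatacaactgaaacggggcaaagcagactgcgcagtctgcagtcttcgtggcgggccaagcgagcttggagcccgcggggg

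TGFB2 encodes a secreted ligand of the TGF-beta family. Of the genes that passed the test, it had the largest difference. In the IRS-1 clones, TGFB2 stood at 7.67, 7.62 and 7.47 with IGF-I, against 7.28, 7.30 and 7.34 in SFM, in #10, and at 8.67, 8.08 and 8.40 with IGF-I, against 6.96, 7.11 and 7.17 in SFM, in #20. In the IRS-2 clones it stood at 8.95, 8.58 and 8.77 with IGF-I, against 7.15, 7.14 and 7.11 in SFM, in #1, and at 9.54, 9.46 and 9.19 with IGF-I, against 7.56, 7.60 and 7.50 in SFM, in #6. IGF-I arrays lay above SFM arrays in every clone, and #10 was the clone with the small step. The response was 0.28 in #10 and 1.31 in #20, against 1.63 in #1 and 1.85 in #6, a difference of -0.95 with a standard error of 0.096 and an adjusted p of 9.27e-09, or 1.93-fold. The response of #10 itself did not pass (adjusted p = 0.133). Of the 5 TGFB2 probe sets 4 were called, with differences of -0.60 to -1.67, and the fifth had a difference of 0.013 (adjusted p = 0.993). Without IRS-1 #10 the TGFB2 difference at the brightest probe set was -0.43, with an adjusted p of 0.229. The dim probe set with the difference of -1.67 (mean 4.69) stayed called whichever clone was left out, at -0.997 without #10. The other called TGFB2 probe sets stood at -0.47 and -0.33 without #10 and were then not called. The clone effect within IRS-1, #10 minus #20, was -1.02 (adjusted p = 1.55e-05).

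GBP1, an interferon-inducible GTPase, had the largest responses among the brightest probe sets of the called genes, and here IRS-1 #20 did not stand below the IRS-2 clones. With IGF-I, GBP1 reached 9.51, 9.64 and 9.36 in #10, against 8.96, 8.82 and 8.80 in SFM, and 10.25, 10.09 and 10.28 in #20, against 7.87, 8.02 and 8.23 in SFM. In the IRS-2 clones it reached 9.95, 9.81 and 9.86 with IGF-I in #1, against 7.75, 7.89 and 7.81 in SFM, and 10.28, 10.12 and 10.20 with IGF-I in #6, against 7.61, 8.06 and 7.95 in SFM. All clones rose, and #10 had the lowest IGF-I level and the highest SFM level. Responses were 0.64 in #10 and 2.17 in #20, against 2.06 in #1 and 2.33 in #6. The difference between isoforms was -0.79 with a standard error of 0.091 (adjusted p = 2.48e-07), and it was -0.024 without #10 (adjusted p = 0.978). Between the IRS-1 clones, #10 minus #20, the GBP1 response differed by -1.53 (adjusted p = 6.79e-11), more than between the isoforms. LMCD1, a LIM domain protein known to act on transcription, and VCL, the adhesion protein vinculin, stood in a similar order: LMCD1 responded at its called probe set by 0.16 and 0.93 in #10 and #20, against 0.97 and 1.33 in #1 and #6, and VCL by 0.14 and 0.62, against 0.60 and 0.75. The brightest probe set of LMCD1 differed by -0.16 between isoforms (adjusted p = 0.326). Without #10 the VCL difference was -0.053 (adjusted p = 0.858).

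CDKN2B, an inhibitor of the kinases that D-type cyclins activate, responded by 0.089 in #10 and 0.43 in #20, against 0.81 in #1 and 0.99 in #6. Its arrays read 6.94, 7.13 and 7.06 with IGF-I, against 7.07, 6.81 and 6.98 in SFM, in #10, and 6.82, 6.85 and 6.79, against 6.34, 6.38 and 6.45, in #20. In IRS-2 they read 7.48, 7.43 and 7.55 with IGF-I, against 6.60, 6.59 and 6.84 in SFM, in #1, and 7.96, 7.67 and 7.76, against 6.63, 6.85 and 6.93, in #6. The arrays of the IGF-I and SFM groups overlapped in #10 and were apart in the other 3 clones. The difference was -0.64 with a standard error of 0.092 (adjusted p = 2.46e-05), and -0.47 without #10 (adjusted p = 0.121). Its other probe set gave -0.53 (adjusted p = 0.00509).

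Among the brightest probe sets of the called genes, only that of C2CD4A, a C2 domain protein, kept its adjusted p whichever clone was left out. In the IRS-1 clones C2CD4A read 7.17, 7.27 and 7.24 with IGF-I, against 7.46, 6.98 and 7.31 in SFM, in #10, and 9.03, 9.13 and 8.91, against 8.93, 9.05 and 9.33, in #20. In the IRS-2 clones it read 10.51, 10.53 and 10.38 with IGF-I, against 9.87, 10.00 and 10.02 in SFM, in #1, and 10.00, 9.76 and 9.91, against 9.09, 9.27 and 9.15, in #6. Both IRS-2 clones rose with their arrays apart, and the arrays of both IRS-1 clones overlapped. Responses were -0.022 and -0.082 in #10 and #20, against 0.51 and 0.72 in #1 and #6, a difference of -0.67 with a standard error of 0.090 (adjusted p = 7.39e-06). With any 1 clone left out the difference stayed between -0.56 and -0.77, with adjusted p of at most 0.0284, and it was under 1.5-fold only without #6. SFM levels of C2CD4A also differed, by -1.39 between the IRS-1 and IRS-2 clones (adjusted p = 1.32e-23), with #10 far below the rest.

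**Figure D2:**
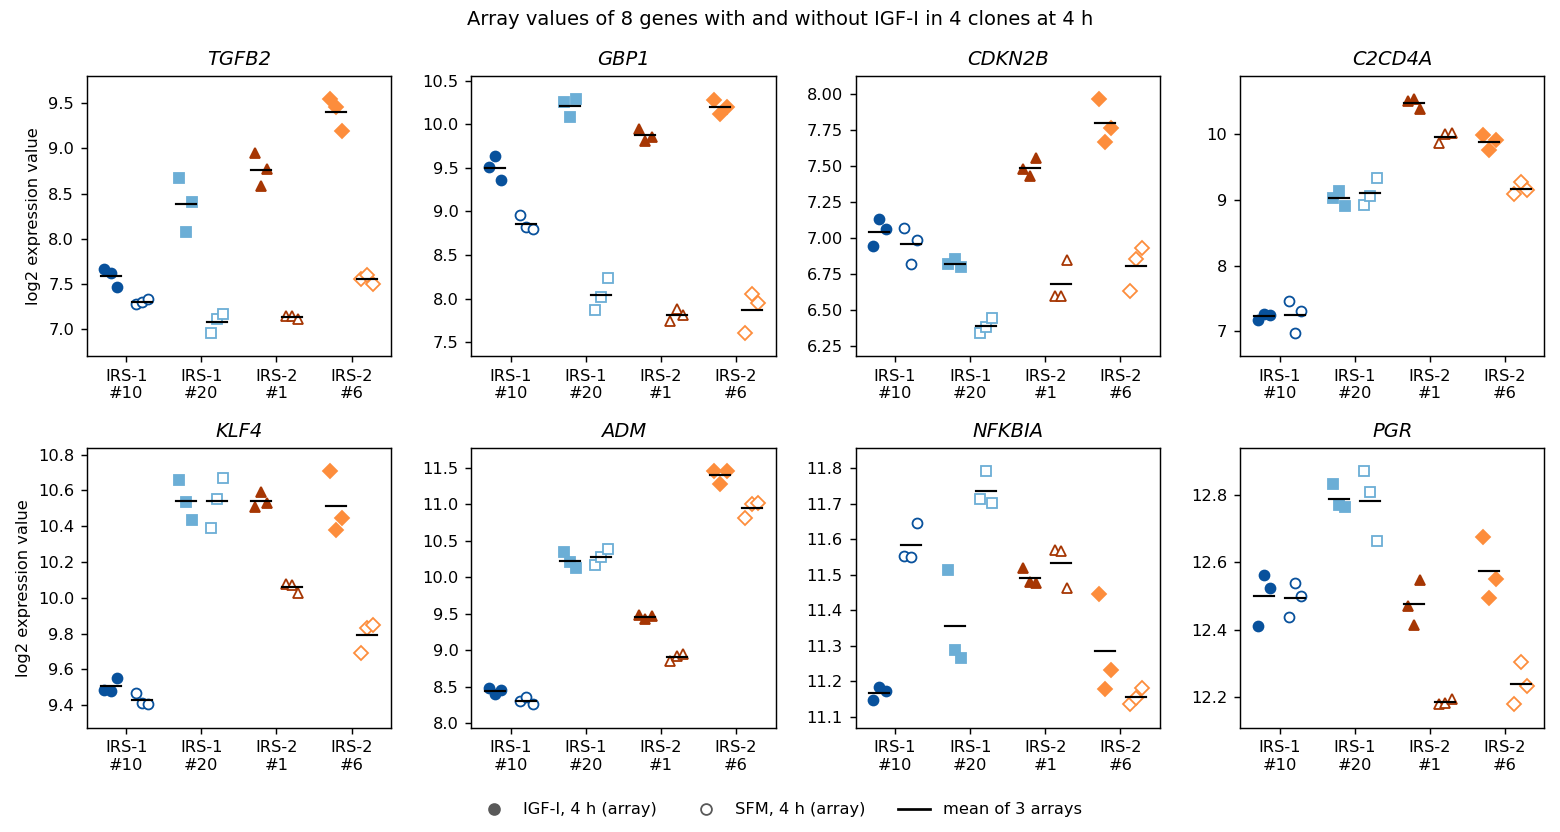
Log2 expression values of 8 genes on all 24 arrays at 4 h, by clone, with IGF-I arrays filled, SFM arrays open and a black line at the mean of 3 arrays. For TGFB2 and GBP1 the small step is that of IRS-1 #10, while for C2CD4A and PGR neither IRS-1 clone moved beyond its arrays and both IRS-2 clones did.

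A group of 10 genes passed the adjusted p with all clones and also with each of the 4 clones left out in turn, and all 10 responded lower in IRS-1. They were C2CD4A, SAMD4A, KLF4, ZBED5, CYP4Z2P, ADM, NFKBIA, ARHGAP29, DKK1 and PGR. Among them, the difference of KLF4 was -0.56 with a standard error of 0.065 (adjusted p = 2.48e-07), just under 1.5-fold. This Krüppel-like transcription factor is an early target of growth factors. KLF4 read 9.48, 9.48 and 9.55 with IGF-I, against 9.47, 9.41 and 9.40 in SFM, in #10, and 10.66, 10.54 and 10.43, against 10.39, 10.55 and 10.67, in #20. In IRS-2 it read 10.51, 10.59 and 10.53 with IGF-I, against 10.08, 10.07 and 10.03 in SFM, in #1, and 10.71, 10.38 and 10.44, against 9.69, 9.83 and 9.85, in #6. KLF4 thus rose by 0.48 and 0.72 in #1 and #6, while its responses of 0.077 in #10 and 0.0040 in #20 did not pass. SAMD4A, an RNA-binding protein, was the gene closest below the fold threshold at -0.57, with responses of 0.18 and 0.40, against 0.78 and 0.94.

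ADM encodes adrenomedullin, a secreted vasodilator peptide that hypoxia is known to raise. It rose by 0.55 and 0.45 in #1 and #6, while its responses of 0.14 and -0.046 in #10 and #20 did not pass, a difference of -0.46 with a standard error of 0.064 (adjusted p = 1.43e-05). With IGF-I, ADM read 8.48, 8.39 and 8.45 in #10, against 8.30, 8.35 and 8.25 in SFM, and 10.35, 10.21 and 10.12 in #20, against 10.16, 10.27 and 10.38 in SFM. In IRS-2 it read 9.48, 9.42 and 9.47 with IGF-I in #1, against 8.84, 8.92 and 8.94 in SFM, and 11.45, 11.28 and 11.45 with IGF-I in #6, against 10.81, 11.01 and 11.02 in SFM. SFM levels varied among the clones by more than the responses did. DKK1, a secreted inhibitor of Wnt signaling, responded by 0.095 and -0.10 in the IRS-1 clones, against 0.29 and 0.45 in the IRS-2 clones. ARHGAP29, a GTPase-activating protein, rose by 0.18 in #10, by 0.50 in #1 and by 0.62 in #6, and its response of 0.14 in #20 did not pass. The dimmer ARHGAP29 probe sets differed by -0.38, 0.067 and -0.030 (adjusted p = 0.327, 0.962 and 0.988).

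PGR encodes the progesterone receptor. Its brightest probe set responded by 0.0065 in #10 and 0.0080 in #20, against 0.29 in #1 and 0.34 in #6, a difference of -0.31 with a standard error of 0.048 (adjusted p = 0.000126). PGR read 12.41, 12.56 and 12.52 with IGF-I, against 12.44, 12.54 and 12.50 in SFM, in #10, and 12.83, 12.77 and 12.76, against 12.87, 12.81 and 12.66, in #20. In IRS-2 it read 12.47, 12.41 and 12.55 with IGF-I, against 12.18, 12.18 and 12.19 in SFM, in #1, and 12.68, 12.49 and 12.55, against 12.18, 12.30 and 12.23, in #6. The SFM level was lower in both IRS-2 clones, and with IGF-I both stood near the level of #10. T47D-YA cells are known to carry a construct of the A form of this receptor, and whether this probe set reads the construct is not given in the sources used here. The other, dimmer PGR probe set had a difference of 0.21 (adjusted p = 0.781). CYP4Z2P, a cytochrome P450 pseudogene, differed by -0.50 (adjusted p = 9.27e-09), with responses of -0.022 in both IRS-1 clones, against 0.40 and 0.57, and its signal may not be separable from that of the near-identical gene CYP4Z1. ZBED5, which derives from a DNA transposon, differed by -0.51 (adjusted p = 9.66e-08), with responses of 0.11 and -0.15, against 0.44 and 0.54. The dimmer ZBED5 probe sets differed by -0.17 and 0.11 (adjusted p = 0.725 and 0.888). On SFM arrays CYP4Z2P stood higher in the IRS-1 clones by 1.88 and ZBED5 by 1.05 (limma adjusted p = 7.44e-39 and 7e-27). Whether these levels bear on the responses was not tested.

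**Figure D3:**
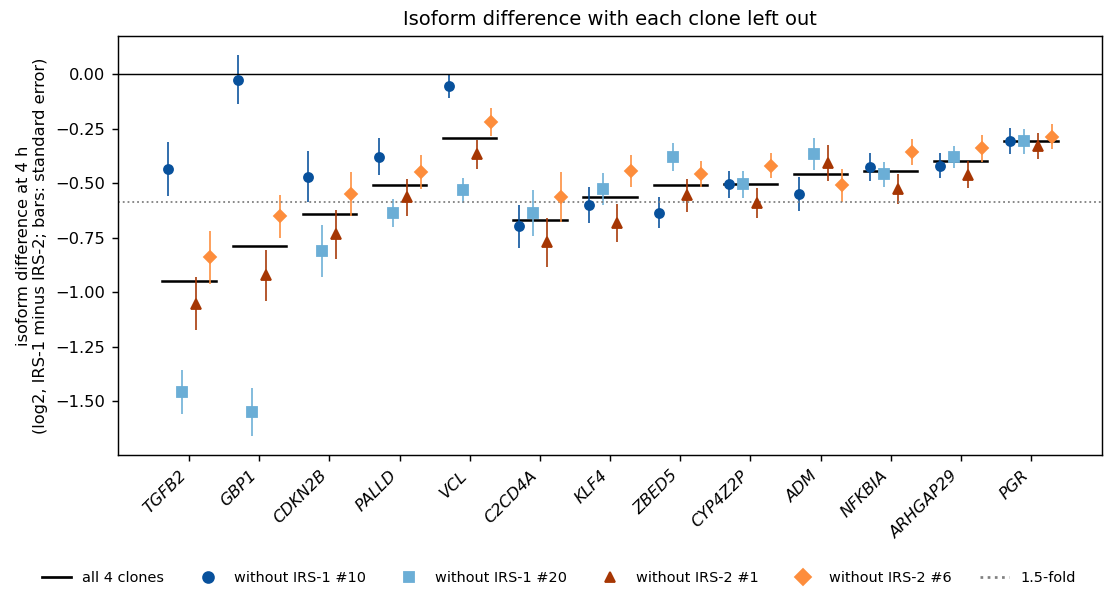
Isoform difference at 4 h (log2, IRS-1 minus IRS-2) of 13 genes with all 4 clones (black line) and with each clone left out (symbols, bars are standard errors), with the dotted line at 1.5-fold. Without IRS-1 #10 the GBP1 and VCL values move to near 0. The 8 genes from C2CD4A rightward stay below 0 beyond their standard errors whichever clone is left out. These 8 are among the genes that passed with each clone left out, so this was set by their choice.

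For NFKBIA it was the IRS-1 clones that moved, and they fell. In #10, NFKBIA read 11.15, 11.19 and 11.17 with IGF-I, against 11.55, 11.55 and 11.65 in SFM, and in #20 it read 11.51, 11.29 and 11.26, against 11.71, 11.79 and 11.70. In #1 it read 11.52, 11.48 and 11.48 with IGF-I, against 11.57, 11.57 and 11.46 in SFM, and in #6 it read 11.44, 11.18 and 11.23, against 11.14, 11.15 and 11.18. Arrays were apart in both IRS-1 clones and overlapped in both IRS-2 clones. The response was -0.41 in #10 and -0.38 in #20, both past the test, against -0.041 in #1 and 0.13 in #6, which did not pass (adjusted p = 0.877 and 0.260). The difference was -0.44 with a standard error of 0.052 (adjusted p = 2.85e-07). Of a list of 17 measured NF-kB targets and chemokines, 5 responded lower in IRS-1 at an adjusted p under 0.05 and 0 higher, beside 0.389% and 0.0506% of all genes, and 12 did not pass. The median difference of the list was -0.15, beside -0.00012 over all genes. The 5 were NFKBIA, TNFAIP3, NFKBIE, NFKB2 and CCL2. TNFAIP3 encodes A20, which restrains NF-kB signaling, and it fell in #10 and rose in #6, with responses of -0.30 and -0.13 in #10 and #20, against 0.046 and 0.24 in #1 and #6. NFKBIE, another IkB protein, differed by -0.24 and NFKB2, an NF-kB subunit, by -0.36. The chemokine CCL2 was the exception in level, since it rose in all 4 clones, by 0.64 and 0.98 in #10 and #20, against 0.93 and 1.34 in #1 and #6. NFKBIA is represented by 2 probe sets, and the dimmer one differed by 0.021 (adjusted p = 0.989).

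Kappa B sites were found in 11 of the 61 promoters of this length that could be matched to the 77 lower genes (18.0%), beside 6.47% of the promoters of 15384 measured genes. The 11 genes were NFKBIA, TNFAIP3, IFNGR1, VCL, ZSCAN31, FJX1, SRF, IL32, AHR, CLIC4 and FAM131B-AS2. In the sequences above, the site of NFKBIA lies at -81 to -72, counted in bases from the start, and those of TNFAIP3 lie at -67 to -58 and at -55 to -46. The TATAAA match of TGFB2 lies at -29 to -24, and this motif was in 11 of the 61 promoters (18.0%), beside 8.76%. The CArG box of GBP1 lies at -166 to -157, and such boxes were in 4 of 61 (6.56%), beside 1.22%. The cyclic AMP response element TGACGTCA was in 4 of 61 (6.56%), beside 2.67%, DUSP1 and JUND among them. AP-1 sites of the form TGANTCA were in 2 of 61 (3.28%), beside 5.84%, forkhead sites of the form TGTTTAC also in 2 of 61, beside 2.62%, and the STAT motif TTCNNNGAA in 1 of 61 (1.64%), beside 6.95%. All motifs were searched on both strands, and a site that matches more than 1 motif counts for each. These are matches of letters in a fixed window, and no test was made of them.

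Part of the inhibitors and early targets of ERK signaling also responded lower in IRS-1. Of 18 genes of ERK feedback, 4 passed the adjusted p with a lower response in IRS-1, 0 with a higher one, and 14 did not pass, beside 0.389% lower and 0.0506% higher over all genes. DUSP1, a phosphatase of MAP kinases, rose by 0.67 in #6, and its responses of -0.053 and -0.028 in #10 and #20 and of 0.22 in #1 did not pass, a difference of -0.49 with a standard error of 0.076 (adjusted p = 0.000133). Without #6 the DUSP1 difference was -0.26 (adjusted p = 0.628), and its other probe sets differed by 0.021 and -0.19, neither past the test. DUSP10, which acts on JNK and p38 kinases, differed by -0.45, IER3 by -0.40 and DUSP5, a nuclear ERK phosphatase, by -0.26. The ERK phosphatase DUSP6 differed by -0.21 (adjusted p = 0.518), while SPRY2 and SPRY4, inhibitors of receptor tyrosine kinase signaling, differed by -0.13 and -0.12 (adjusted p = 0.873 and 0.865). Of 23 immediate early transcription factors, 6 were lower in IRS-1 (0.389% of all genes were), 0 higher and 17 did not pass: after KLF4, KLF6 differed by -0.46, JUN by -0.40, SRF by -0.38, ATF3 by -0.37 and JUND by -0.34. FOS, EGR1 and MYC did not pass, with differences of 0.31, 0.072 and -0.010. The median difference was -0.14 for ERK feedback and -0.080 for the transcription factors.

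In each of these 4 genes of ERK feedback and 6 transcription factors that passed, IRS-2 #6 had the highest response of the 4 clones. KLF6 responded by -0.059 and -0.053 in the IRS-1 clones, against 0.19 in #1 and 0.61 in #6, and only the last passed. MAFF, a small MAF transcription factor, responded at its called probe set by 0.011 and 0.59 in the IRS-1 clones, against 0.83 in #1 and 1.85 in #6. Its isoform difference was -1.04 (adjusted p = 6.82e-07) and its difference between #1 and #6 was -1.02 (adjusted p = 0.0425). MAFF's brightest probe set differed by -0.23 (adjusted p = 0.492) between isoforms, so the probe sets of this gene disagree. Over all probe sets, 109 were called higher with IGF-I in #6 (0.2%) and 48 in #1 (0.0879%), against 29 in #20 (0.0531%) and 17 in #10 (0.0311%). Called lower with IGF-I were 13 in #6 (0.0238%) and 11 in #1 (0.0201%), against 31 in #20 (0.0568%) and 17 in #10 (0.0311%).

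Most other lists held at most 2 genes that passed in either direction, beside 0.389% of all genes lower and 0.0506% higher in IRS-1. SRF and YAP targets had VCL lower in IRS-1 among 17 measured, adhesion and matrix genes had VCL and PLAU among 23, and interferon-inducible genes had GBP1 among 22. PLAU, the urokinase-type plasminogen activator, responded by -0.18 and 0.13, against 0.15 and 0.44, a difference of -0.32 (adjusted p = 0.00994). Among 26 genes of ATF4 and amino acid supply, the amino acid transporter SLC38A2 (-0.23) and the transcription factor CEBPB (-0.18) were lower. SC5D, an enzyme of cholesterol synthesis, differed by -0.21 (1 of 18 sterol and fatty acid genes), MCL1, an inhibitor of apoptosis, by -0.24 (1 of 24 p53 targets and BCL2 family genes), and CYP1A1, a classical target of the aryl hydrocarbon receptor, by -0.35 (1 of 14 AHR and LXR targets). CYP1A1 fell in #10, #20 and #1, by 0.71, 0.64 and 0.54, and its response of -0.10 in #6 did not pass. The response of MCL1 did not pass in any single clone. Dimmer probe sets of some of these genes did not pass. They differed by -0.069 to -0.22 for MCL1, -0.10 for PLAU, -0.090 for SC5D and 0.054 for VCL. TGFB2 was the 1 gene of 23 in the TGF-beta pathway, CDKN2B of 19 G1 cyclins, CDKs and inhibitors, ADM of 21 hypoxia and glycolysis genes, and PGR of 19 luminal hormone receptor genes. Of 20 ribosome biogenesis genes, 28 IGF receptors and adaptors, and 18 EGF ligands and TNF receptors, 0 passed in limma, with 1, 3 and 5 at an unadjusted p under 0.05. Medians of these lists lay between -0.11 and 0.022. Of the 9 genes of the study's PCR, which were picked on these cells, 4 were lower (TGFB2, GBP1, CDKN2B and ADM), and of 3 genes linked to an isoform in earlier results of these data, 1 was (C2CD4A), so neither count is independent of the samples.

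FOXO targets were divided. TRIB1, a pseudokinase, rose in #1 and #6 by 0.44 and 0.63, and differed by -0.41 (adjusted p = 0.000183), while TXNIP, which binds thioredoxin and limits glucose uptake, was higher in IRS-1 by 0.24 with a standard error of 0.046 (adjusted p = 0.00302). TXNIP rose by 0.17 in #10 and 0.34 in #20, and its responses of 0.089 in #1 and -0.062 in #6 did not pass. The dimmer TXNIP probe sets differed by 0.19 and 0.082 (adjusted p = 0.15 and 0.916). Those of TRIB1 differed by -0.11 and 0.13 (adjusted p = 0.889 and 0.896). The other 21 of 23 FOXO targets did not pass, beside the same shares over all genes, 0.389% lower and 0.0506% higher. TXNIP was 1 of only 10 genes with a higher response in IRS-1, none of which reached 1.5-fold. The smallest adjusted p among them was that of PRR15L, which fell in IRS-2 by 0.31 in #1 and 0.45 in #6 and responded by -0.021 and -0.044 in #10 and #20, a difference of 0.34 (adjusted p = 1.92e-05). PRR15L read 10.51, 10.49 and 10.38 with IGF-I, against 10.51, 10.51 and 10.43 in SFM, in #10, and 10.54, 10.53 and 10.51, against 10.53, 10.54 and 10.64, in #20. In IRS-2 it read 10.29, 10.32 and 10.37 with IGF-I, against 10.62, 10.68 and 10.60 in SFM, in #1, and 10.27, 10.10 and 10.22, against 10.59, 10.67 and 10.68, in #6. The 6 IGF-I arrays of IRS-2 thus lay below all other arrays of this gene. The largest of the 10 differences was that of WNT9A, a Wnt ligand, at 0.49 with a standard error of 0.11, with responses of 0.29 and 0.46, against -0.15 and -0.085. KITLG, the ligand of the KIT receptor, and RHOBTB1 rose in #10, by 0.45 and 0.58, and not past the test in #20. MAP2K6, a kinase of the p38 pathway, fell in #6 by 0.54. The others were LINC00324, GNA14, MS4A5 and POU2AF3, with differences of 0.29 to 0.37. Each of the 10 lost its adjusted p when at least 1 of the clones was left out.

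**Figure D4:**
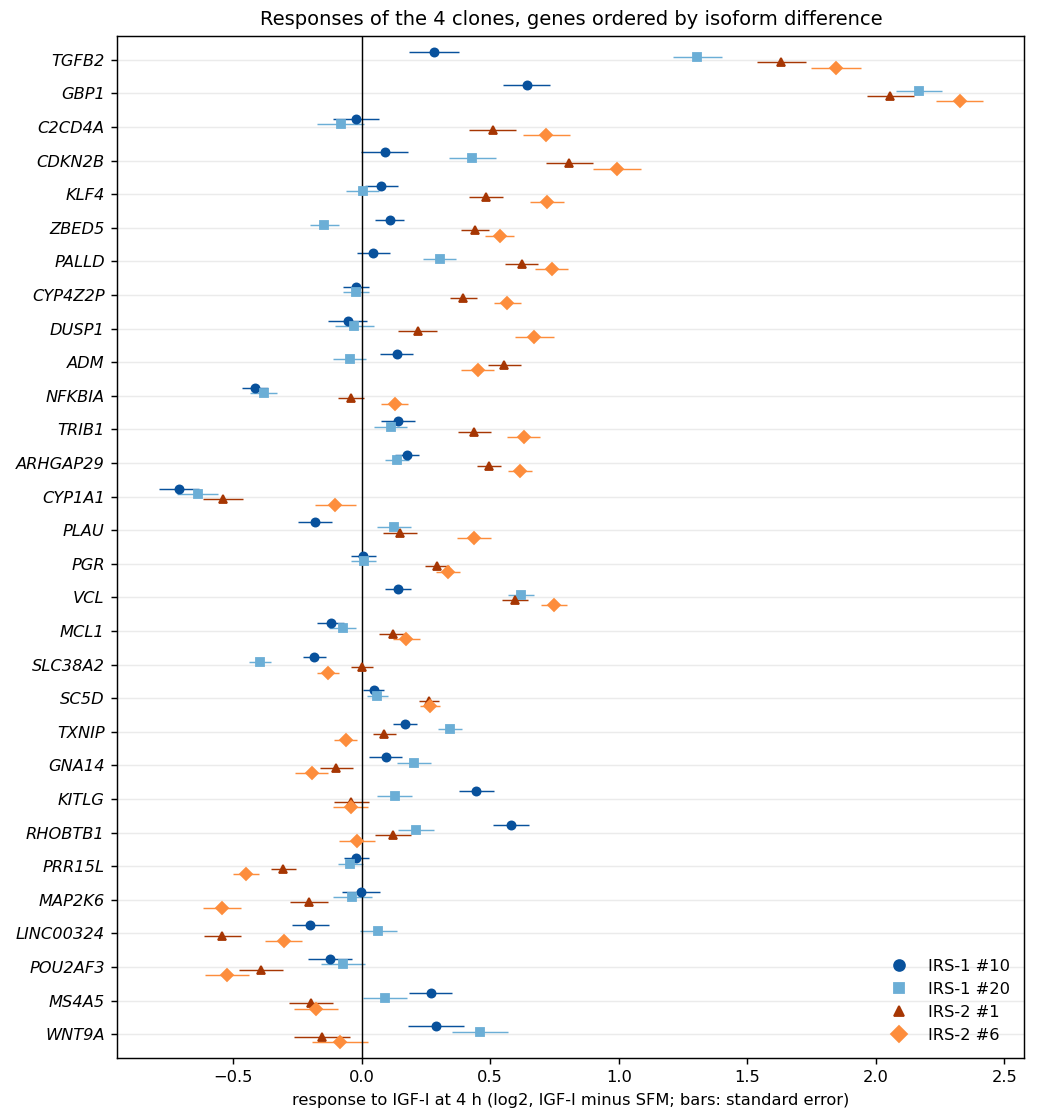
Response to IGF-I at 4 h (log2, IGF-I minus SFM, bars are standard errors) of each clone for the 30 named genes with an adjusted p under 0.05, ordered by the isoform difference. Blue symbols (IRS-1) lie left of orange symbols (IRS-2) in the upper rows, except where IRS-1 #20 reaches the IRS-2 clones (GBP1, VCL), and right of them in the 10 lowest rows.

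The 77 lower genes were mostly genes that rose in IRS-2 clones: 44 rose past the adjusted p in both IRS-2 clones and 5 in both IRS-1 clones, beside 1.08% and 0.364% of all genes. In 25 of them the response rose past the adjusted p in both IRS-2 clones and changed in neither IRS-1 clone, a pattern of 0.415% of all genes. In another 19 it rose in both IRS-2 clones and in at least 1 IRS-1 clone (0.662% of all genes), and in 19 it rose in 1 IRS-2 clone and in no IRS-1 clone (0.9%). Only 4 fell in both IRS-1 clones without a fall in IRS-2 (0.243%), NFKBIA among them, with CHD2, IRF2BPL and SLC38A2. Median responses of the 77 were 0.023 in #10 and -0.010 in #20, against 0.26 in #1 and 0.38 in #6. In 74 of the 77 both IRS-1 responses lay below both IRS-2 responses, beside 18% of all genes, and in all 10 higher genes they lay above them, beside 17.1%. The genes were chosen by this difference, so a separation of the clones was favored by the choice. The same holds for the counts of rises and falls above, for which the shares over all genes make no allowance. Over the 48874 probe sets with a mean of at least 5, responses correlated at 0.387 between #10 and #20 and at 0.485 between #1 and #6, and at 0.348 to 0.447 between clones of different isoforms. These are descriptions across probe sets, which are not independent, and #10 was closer to IRS-2 #1 than to IRS-1 #20.

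With the 1.5-fold threshold the IRS-1 clones differed from each other at nearly as many probe sets as the isoforms did, but at the adjusted p alone at far fewer. Between #10 and #20, 14 probe sets (0.0256%) were called at both thresholds, 2 higher and 12 lower in #10, beside 16 between isoforms. At the adjusted p alone there were 20 probe sets (0.0366%) and 9 genes, beside 142 and 87 between isoforms. The standard error of the contrast between clones is larger, with a median of 0.119. Of these, 7 are probe sets of TGFB2, GBP1 and LMCD1 that were also called between isoforms. The other 7 are CALD1, an actin-binding protein, DUSP6, RCAN1, SOX2, CREBRF, DOK7 and GBP2. Without #10, 10 probe sets were called between isoforms, of which 5 were among the 16. DUSP6 rose by 0.81 in #10, against a response of 0.19 in #20 that did not pass, opposite in order to TGFB2. Between #1 and #6, 1 probe set (0.00183%), that of MAFF, was called. With each clone counted as 1 value, 2 against 2, an exact permutation test cannot give a two-sided p under 0.333. A limma fit to the 4 clone responses had 2 residual degrees of freedom, with variances moderated across probe sets. Its adjusted p was 0.0423 for C2CD4A, 0.0486 for KLF4 and CYP4Z2P, and 0.0556 for NFKBIA. For ZBED5, ARHGAP29, ADM and PGR, which also passed with each clone left out, it was 0.0566, 0.0637, 0.104 and 0.108. For CDKN2B, TGFB2 and GBP1 it was 0.123, 0.354 and 0.802. These values thus borrow spread from other probe sets and do not rest on the 4 clones alone.

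The other genes of the study's PCR and the receptor and adaptor genes did not differ detectably between isoforms. CCND1, which encodes cyclin D1, rose in every clone, by 0.79 and 0.78 in #10 and #20, against 0.78 and 0.69 in #1 and #6. The CCND1 difference was 0.049 with a 95% confidence interval of -0.091 to 0.19 (adjusted p = 0.957). TNFRSF12A, the receptor of the cytokine TWEAK, also rose in every clone, by 0.28 and 0.50, against 0.50 and 0.66, and its difference of -0.19 did not pass (adjusted p = 0.126), with an interval of -0.29 to -0.088. TGFB1, the related ligand of TGFB2, differed by -0.059 (interval -0.26 to 0.14), MYBL2 by -0.050 (-0.16 to 0.064) and the cystine transporter gene SLC7A11 by -0.012 (-0.17 to 0.14) at its brightest probe set. Another SLC7A11 probe set responded more, by 0.34 and 0.74 in #10 and #20, against 0.78 and 1.02 in #1 and #6, and its difference of -0.36 with a standard error of 0.10 did not pass (adjusted p = 0.181). The remaining probe set of SLC7A11 differed by -0.12 (adjusted p = 0.916). The receptor gene IGF1R differed by -0.10 (-0.23 to 0.025), and IRS1 and IRS2 by 0.030 and -0.011. These intervals are not adjusted for the number of genes.

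At 24 h the calls lay in the other direction. There, 32 probe sets (0.0586%) were called, all with a higher response in IRS-1. Of the 77 genes lower at 4 h, 3 passed the adjusted p at 24 h, ATF3, CLIC4 and CEBPB, each then higher in IRS-1, beside 0.769% of all genes. The median difference of the 77 was -0.34 at 4 h, at which they had been chosen, and -0.051 at 24 h. The 4 h difference minus the 24 h difference passed the adjusted p for 21 of them, beside 0.516% of all genes. This contrast contains the 4 h difference by which the genes were chosen, so a larger share than over all genes was favored. TGFB2 changed by -1.02 (adjusted p = 3.05e-06) between the times, GBP1 by -1.13 (7.72e-08), KLF4 by -0.75 (3.38e-07), C2CD4A by -0.75 (0.000395) and CDKN2B by -0.63 (0.00819). SLC7A11, whose brightest probe set did not pass at 4 h, responded at that probe set higher in IRS-1 at 24 h by 0.67 (adjusted p = 7.9e-08). TXNIP was the 1 gene of the 10 higher ones with an adjusted p under 0.05 at both times, at 0.24 and 0.23.

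**Figure D5:**
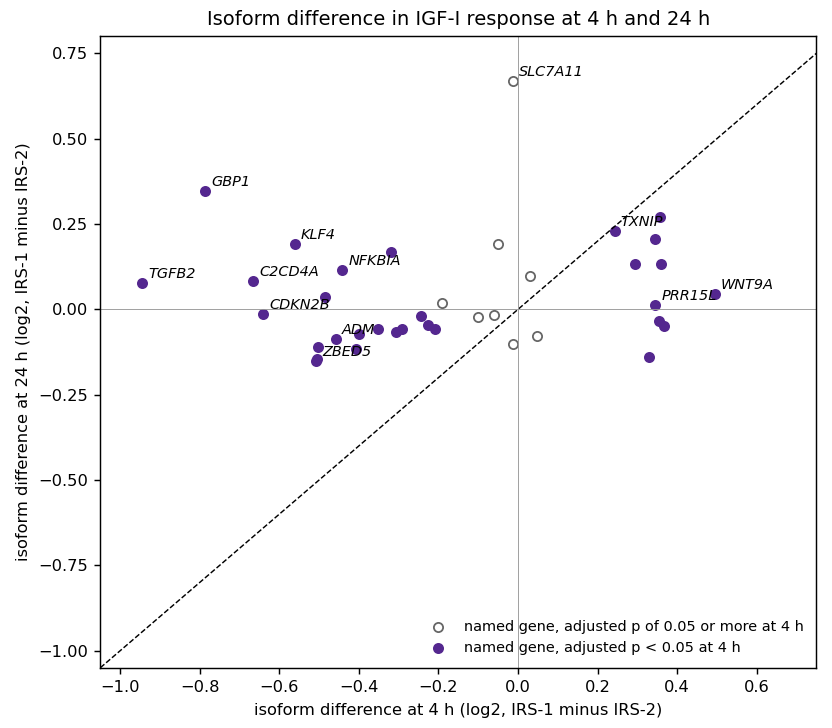
Isoform difference in the IGF-I response (log2, IRS-1 minus IRS-2) at 24 h on the y axis against 4 h on the x axis for the 38 named genes, with the dashed line marking equal values. Genes that were lower in IRS-1 at 4 h lie close to 0 at 24 h, GBP1 lies at -0.79 and 0.35, and SLC7A11 lies near 0 at 4 h and at 0.67 at 24 h.

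RNA quality moved little with the contrast. The difference between 3′ and 5′ ACTB control probe sets responded to IGF-I by -0.026 and -0.015 in #10 and #20, against -0.033 and -0.033 in #1 and #6. Its level was mostly higher in the IRS-1 clones, at 0.157 to 0.272 on single arrays, against 0.038 to 0.173 in the IRS-2 clones. With this measure as a covariate 15 probe sets were called, all lower in IRS-1, and the same 4 genes.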

How the data were processed

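RNA of 4 T47D-YA clones was measured on HG-U133 Plus 2.0 arrays (Affymetrix), of which the 24 at 4 h carry this contrast. As deposited by the authors, values are log2 summaries per probe set; per the labels and methods they were made with GC-RMA (version not given in the sources used here) in GeneData Refiner. Such summaries shrink differences of dim probe sets, and no raw intensities or background flags were used, so signal over background is unknown. The number of arrays limits the precision.

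After 62 Affymetrix controls were left out, limma 3.58.1 (R 4.3.3) was run on 54613 probe sets, with 16 group means over all 48 arrays, 32 residual degrees of freedom and variances moderated along an intensity trend. Contrasts were adjusted by Benjamini-Hochberg over all probe sets. Calls needed an adjusted p under 0.05 and 1.5-fold. Genes were the probe set of highest mean among the 41091 with a single symbol; 41037 symbols were matched by Entrez identifier, and 0 changed. No per-sample column was left unused, and 0 columns were identical.

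Named genes were those called, the next by adjusted p up to 10 in each direction, from each of 20 lists the member of largest positive and of largest negative difference past the adjusted p, the genes of the study's PCR, and IGF1R, IRS1 and IRS2, 38 in all. Others were named after their values were seen. The contrast, the rule and the lists, which were written from general knowledge, were chosen with earlier results of these data known. Promoters came from RefSeq, with 31 of the 38 named genes matched.

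Alternatives were the 24 arrays alone, a filter that kept probe sets reaching 5 on 3 or more arrays, quantile normalization, median centring, variances without trend, the array letter as a block, an RNA quality covariate, other thresholds, the methods' t-test, clones as units, each clone or letter left out, and a gene's probe sets averaged. The limma steps were tested on simulated data. Figures used Python 3.11.15, pandas 2.3.3, numpy 2.4.6 and matplotlib 3.10.9.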

Additional observations from a re-analysis of the deposited data

Results flagged for a closer look

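The mean 4 h response differed between the IRS-1 and IRS-2 clones for TGFB2 by -0.95, GBP1 by -0.79, C2CD4A by -0.67 and CDKN2B by -0.64 (log2). Each passed the 1.5-fold threshold and the adjusted p of limma with arrays as replicates. A limma fit with each clone as 1 value gave adjusted p of 0.354, 0.802, 0.0423 and 0.123, in the same order. Without #10 the differences at these brightest probe sets were -0.43, -0.024, -0.70 and -0.47. A dimmer TGFB2 probe set stayed called without #10, at -0.997, and the other called ones of this gene did not. The response also differed between the IRS-1 clones, #10 minus #20, for TGFB2 by -1.02 and for GBP1 by -1.53.

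The isoform difference at 4 h minus that at 24 h passed both thresholds for TGFB2 (-1.02), GBP1 (-1.13), C2CD4A (-0.75), CDKN2B (-0.63), KLF4 (-0.75) and SLC7A11 (-0.68). For SLC7A11, at its brightest probe set, it was the 24 h response that passed the test of the isoform difference.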

How the results depend on the processing

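The 16 probe sets and 4 genes called between isoforms, all lower in IRS-1, stayed at 14 to 17 probe sets and 4 genes with 24 arrays, the filter on dim probe sets, quantile normalization, median centring, variances without trend, the RNA quality covariate, an unadjusted p and the methods' t-test without adjustment, and at 12 and 4 with Bonferroni adjustment. A 2-fold threshold left 2 probe sets and 0 genes, and no fold threshold gave 142 and 87. The methods' t-test with adjusted p left 1 and 1, and clones as units 2 and 1 (C2CD4A in both). Without clone #10, 10 probe sets and 3 genes were called, of which 5 and 1 were among the original ones. Without #20 the counts were 30 and 10, 1 of each higher in IRS-1, without #1 they were 33 and 13, and without #6 they were 9 and 3. Leaving out an array letter gave 15 to 16 probe sets and 3 to 5 genes. Averaging a gene's probe sets left 3 genes.

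Between the IRS-1 clones 14 probe sets were called (8 to 16 without a letter). Between the IRS-2 clones 1 was called, and 0 with 24 arrays, median centring or variances without trend, 2 with quantile normalization and 0 to 12 without a letter. On average the array letters did not pair the samples: deviations correlated at -0.026 with the same letter and at 0.013 with different letters. Same-letter correlations ranged from -0.47 to 0.45, so the averages do not settle pairing within single groups. With the letter as a replicate block, 16 probe sets and 4 genes were called between isoforms, 14 between the IRS-1 clones and 3 between the IRS-2 clones.

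Signs changed only for genes far from the threshold: without #10 for MYBL2 (0.0065), SLC7A11 (0.018), TGFB1 (0.031), IRS1 (-0.0034) and IRS2 (0.14), without #1 for IRS1 (-0.026) and IRS2 (0.023), without #6 for SLC7A11 (0.075), and with averaged probe sets for IRS1 (-0.11). With a letter left out, differences ranged from -0.097 to 0.053 for SLC7A11, from -0.23 to 0.17 for TGFB1, from -0.063 to 0.12 for IRS1 and from -0.064 to 0.042 for IRS2. The cause of these changes was not tested.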
